A study of Mus musculus with 6 samples.

Results

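The proteasome and ubiquitin system genes described here were 49 genes, read by 61 probes, of the 3470 genes and 4093 mRNA probes whose names were held. Their gene symbols were matched by letters: Psma to Psmg for the proteasome, Uba and Ube for activating and conjugating enzymes, Rnf and Trim for RING ligases, Fbxo for F-box proteins and Usp for deubiquitinases, each followed by a number or, for Uba, by any letters. The match used symbols only. The letters also took in Ubap2l, whose product is named for a ubiquitin-associated domain. A single probe was held for 40 of the genes, 6 genes had 2 probes and 3 genes had 3 probes.

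Male C57BL/6J mice received isoproterenol, which activates β-adrenergic receptors, under the skin at 40 mg/kg/day for 1 week and are called HF mice, and control mice received saline. The sources name no engineered allele in either group, and the age of the mice was not given in the sources used here. RNA of heart, whole blood and plasma was mixed from 5 mice of a group, and every mixture was read once, giving 6 arrays without replicates. No difference between HF and control could be tested. The errors printed with differences (±) are those that the authors' image software assigns to a spot's signal, combined over the pair of arrays. There were 61194 spots for 59729 probes, so these errors measure no spread between spots or mice. For bright probes they take the same value, 0.20.

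Proteins are marked for breakdown by ubiquitin, a small protein that an activating enzyme (E1) loads, a conjugating enzyme (E2) carries and a ligase (E3) attaches to the substrate. Chains of ubiquitin are read by the regulatory particle of the proteasome, whose ring of ATPases unfolds the substrate and feeds it to the proteolytic core, and deubiquitinases remove the mark. Heart and skeletal muscle use this system in the turnover of contractile proteins, with ligases of their own such as Trim63 (MuRF1), and maturing red cells use it while they lose their organelles.

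The promoters of 4 members are shown because results below turn on their probes: Trim63, a ligase of striated muscle, Ube2h, a conjugating enzyme of maturing red cells, Psmc1, an ATPase of the regulatory particle that was higher in HF whole blood, and Psmd4, a ubiquitin receptor of the proteasome with the largest fall in plasma among members detected on both arrays. Each is the 250 bases before an annotated start from RefSeq, on build GRCm38.p6, given in the direction of the gene. Capitals mark matches, on either strand, to the letters of the antioxidant response element core (TGANNNNGC), a forkhead motif (GTAAACA) or the CCAAT box (CCAAT).
Trim63, chr4:134314870-134315119, plus strand: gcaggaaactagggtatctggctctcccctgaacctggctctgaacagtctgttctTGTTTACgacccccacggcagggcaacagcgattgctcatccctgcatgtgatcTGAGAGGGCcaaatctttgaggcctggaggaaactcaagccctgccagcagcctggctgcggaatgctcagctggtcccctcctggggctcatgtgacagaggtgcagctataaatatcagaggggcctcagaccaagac
Ube2h, chr6:30243804-30244053, minus strand: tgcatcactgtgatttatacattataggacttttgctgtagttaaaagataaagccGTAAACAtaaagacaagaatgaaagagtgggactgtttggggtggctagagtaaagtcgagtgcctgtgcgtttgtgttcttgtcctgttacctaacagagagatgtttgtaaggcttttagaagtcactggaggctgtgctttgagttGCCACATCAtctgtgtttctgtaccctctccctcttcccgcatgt
Psmc1, chr12:100109952-100110201, plus strand: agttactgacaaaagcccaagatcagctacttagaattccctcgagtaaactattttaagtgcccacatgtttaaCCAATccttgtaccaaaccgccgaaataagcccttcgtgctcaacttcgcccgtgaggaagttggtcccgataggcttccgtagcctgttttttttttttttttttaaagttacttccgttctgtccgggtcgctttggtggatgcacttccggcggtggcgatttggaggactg
Psmd4, chr3:95042615-95042864, minus strand: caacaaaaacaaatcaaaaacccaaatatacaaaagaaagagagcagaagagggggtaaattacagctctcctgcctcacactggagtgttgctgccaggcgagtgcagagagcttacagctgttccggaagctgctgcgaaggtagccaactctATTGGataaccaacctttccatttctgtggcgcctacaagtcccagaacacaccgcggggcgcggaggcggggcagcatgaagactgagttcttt
The forkhead letters stood in 2 of the 66 member promoters held, those of Trim63 and Ube2h above, and in both they began 194 bases before the start. That was 3.03% of the member promoters, beside 3.17% of all 32851 promoters of the same length. The response element letters were in 30.3% of member promoters and in 35.2% of all, and the CCAAT letters in 27.3% and 33.8%. Promoters were held for 43 of the 49 genes. For Ube2h another promoter was also held, at chr6:30304540-30304789, with no match to any of these letters. Which start the probes of Ube2h belong to was not examined. A match of letters is a description only, and nothing measured here read a promoter.

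Signals are given as quantile-normalized log2 levels, which can be compared between arrays for 1 probe but not between probes. Detection on an array means that the authors' image software put most spots of the probe well above background and not among its outliers. Of the 61 member probes, 25 were detected on all 6 arrays and 36 on 1 to 5 arrays, and none was saturated. From control heart to HF heart the number detected went from 59 to 53, from control to HF whole blood from 46 to 45, and from control to HF plasma from 56 to 40. As shares of members these were 96.7% and 86.9%, 75.4% and 73.8%, and 91.8% and 65.6%. Of all mRNA probes, 98.2% and 75.5%, 64.2% and 73.6%, and 81.8% and 64.9% were detected in the same order. Where both arrays of a pair detected a probe, a difference of at least 1 on the log2 scale (2-fold) was counted. Where only 1 did, the fold is a bound against the lowest level that the dimmer array could detect.

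Some features of the arrays touch all of the results. The heart arrays shared a scan with HF whole blood and HF plasma, whereas both control blood arrays were in another scan, so in whole blood and plasma the scan and the treatment cannot be told apart. Markers of the labelled tissues were present: all 19 cardiomyocyte probes were detected in both hearts, and all 7 erythroid probes were above background in both whole bloods. Fewer cells of a type and less RNA per cell cannot be told apart in such mixtures. Control plasma was almost the same as control whole blood for the members, since 44 of the 45 probes detected on both (97.8%) differed less than 2-fold, with a median absolute difference of 0.21 on the log2 scale. None was 2-fold higher and 1 was 2-fold lower in control plasma, where 2.68% and 2.84% of all mRNA probes were. HF plasma stood apart from HF whole blood, with 10 members higher, 11 lower and 9 within 2-fold among 30, beside 38.2% higher and 29.5% lower among all mRNA probes. Erythroid markers differed in the same way. The log2 of their summed levels lay between 18.77 and 18.91 in both whole bloods and in control plasma, and HF plasma had 13.54. The part of red cell RNA in the plasma results was not tested. On HF plasma 12.4% of the negative control spots were above background, beside 0.5% to 4.33% on the other 5 arrays, and 2 of the 20 negative control probes were above background on most of their spots there.

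**Figure D1:**
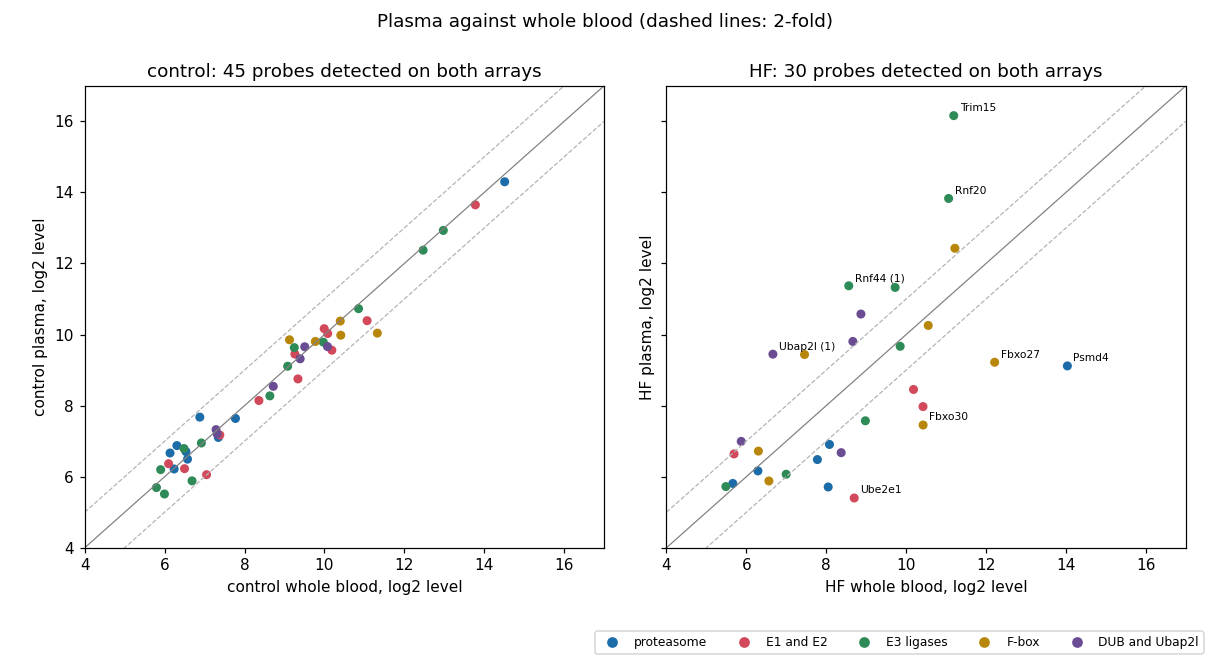
Quantile-normalized log2 levels of member probes in plasma (y axis) against whole blood (x axis) for control (left, 45 probes) and HF (right, 30 probes), with colours for the class of gene, a solid line of equality and dashed lines at 2-fold. The numbers in brackets tell apart probes of 1 gene in the order of their transcript numbers. In control 44 of 45 points lie between the dashed lines, and in HF 9 of 30 do.

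In the heart most members differed little between HF and control. Both heart arrays detected 51 probes, of which 4 (7.84%) were higher in HF by 2-fold or more, 8 (15.7%) were lower by 2-fold or more and the other 39 differed less. Among all 3019 mRNA probes that both detected, 11.6% were higher and 17.1% were lower. The median log2 fold change was -0.18 for members and -0.16 for all mRNA probes, so the list as a whole lay near the background. A further 2 members were detected in HF heart only and 8 in control heart only, where 1.71% and 24.4% of all mRNA probes were.

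Whole blood gave larger differences, again at shares near the background. Of 38 member probes detected on both arrays, 7 (18.4%) were higher in HF and 9 (23.7%) lower, where 20.1% and 27.6% of 2212 mRNA probes were. The median log2 fold change was 0.13 for members and -0.20 for all mRNA probes. Scaled to the 75th percentile of each array in place of quantiles, 4 members were higher and 11 lower, and the median was -0.33, where 15.8% of all mRNA probes were higher, 34.0% lower and their median was -0.41. Only HF whole blood detected 7 members and only control whole blood 8, beside 18.2% and 10.1% of all mRNA probes.

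In plasma 37 members were detected on both arrays, 9 (24.3%) of them higher in HF and 10 (27.0%) lower. All mRNA probes gave 32.8% higher and 23.7% lower among 2232. The median log2 fold change was -0.15 for members and 0.29 for all mRNA probes. Detection was lost more often than gained. In control plasma only 18 members (29.5%) were detected and in HF plasma only 3 (4.92%), where 26.3% and 9.38% of all mRNA probes were. The share lost was thus near that of all mRNA probes. The remaining probe of the pair, of Trim46, was an outlier spot in HF plasma, and 2 members were detected in neither.

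**Figure D2:**
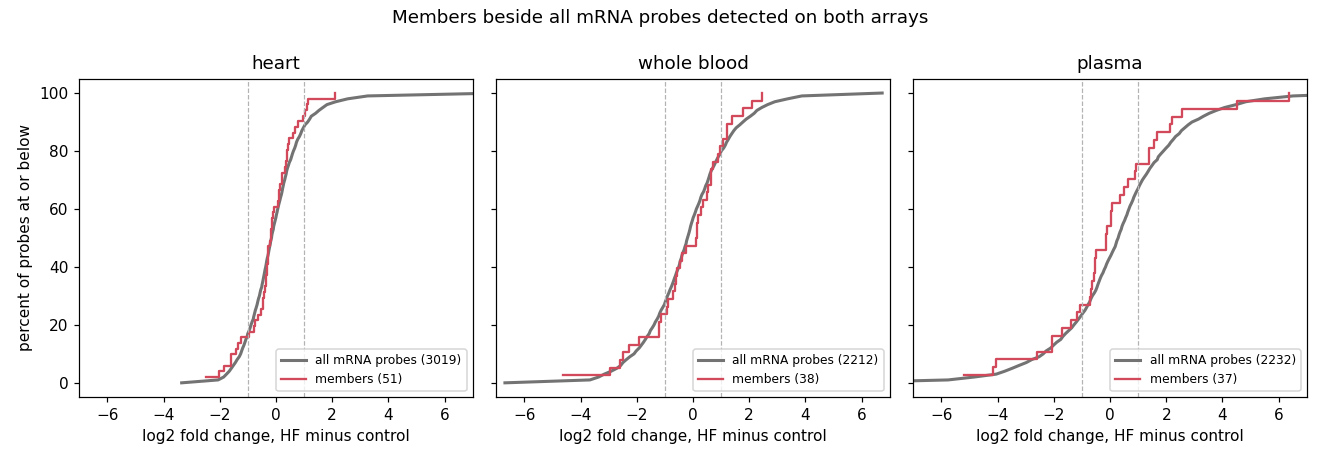
Percent of probes (y axis) at or below a log2 fold change of HF minus control (x axis) in heart, whole blood and plasma, for member probes (red steps) and all mRNA probes (grey line) detected on both arrays, with dashed lines at 2-fold. The medians of members and of all mRNA probes are close in heart, at -0.18 and -0.16. The members' median lies above in whole blood, at 0.13 and -0.20, and below in plasma, at -0.15 and 0.29.

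**Figure D3:**
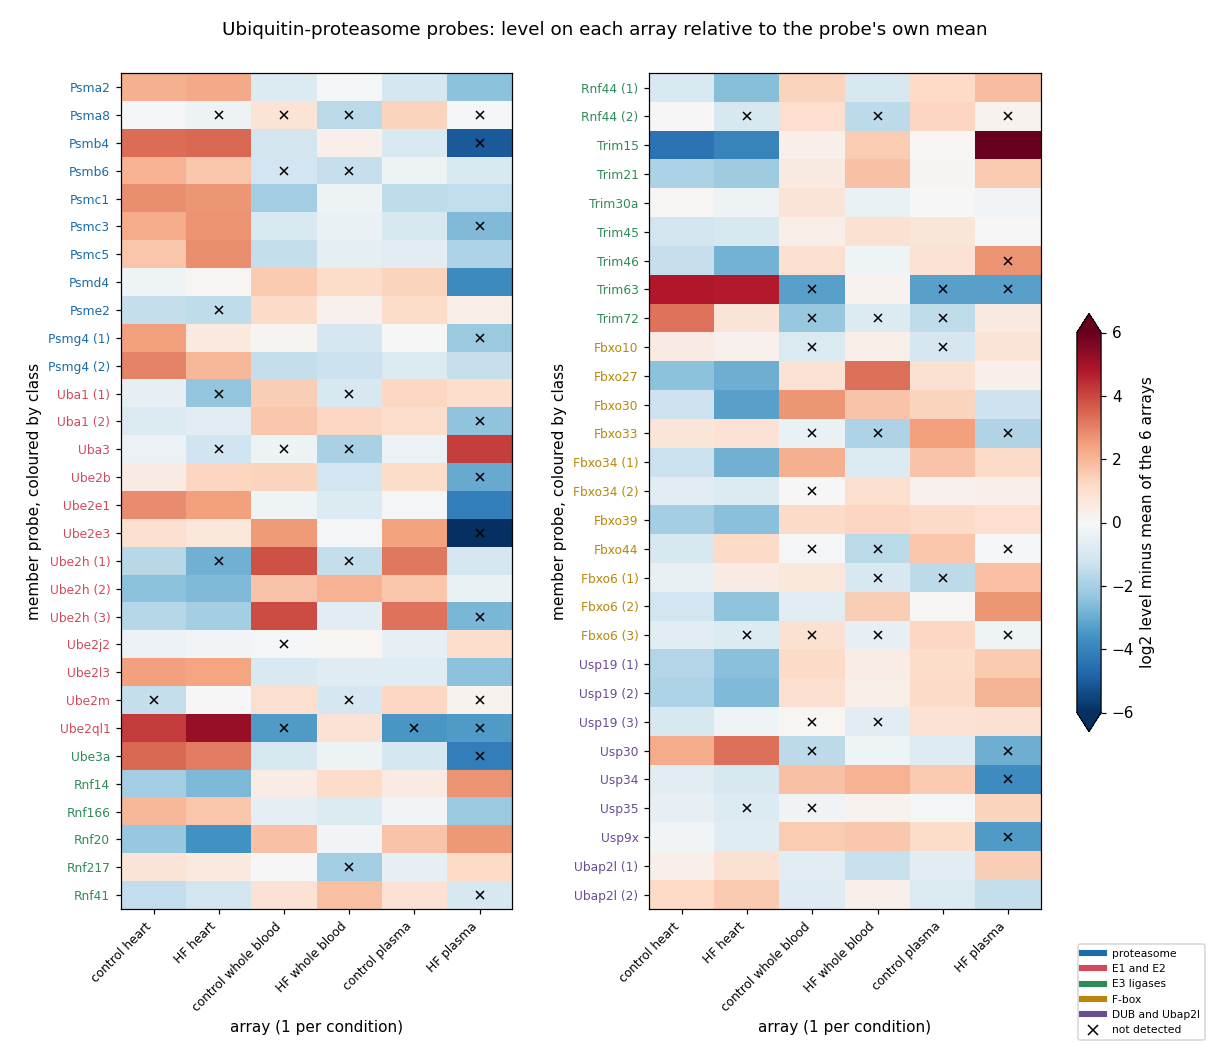
Log2 level of 59 of the 61 member probes on each of the 6 arrays, as the difference from that probe's own mean (colour, red higher and blue lower), with crosses where the probe was not detected or was an outlier spot and labels coloured by class of gene. Crosses are fewest in control heart and most frequent in HF plasma, where 59 and 40 of all 61 member probes were detected. Of all mRNA probes, 98.2% and 64.9% were detected on these arrays.

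The proteasome itself was represented by 10 genes and 11 probes: 4 core subunits, 3 ATPases, the ubiquitin receptor Psmd4, the interferon-inducible activator subunit Psme2 and 2 probes of the assembly chaperone Psmg4. In heart 1 of 9 probes detected on both arrays was higher and 1 lower, and in whole blood 2 of 9 were higher and 1 lower. In plasma none of 7 was higher and 3 were lower, with 4 more detected in control plasma only. For this and each later class, the shares of all mRNA probes stand beside the counts. They were 11.6% higher and 17.1% lower in heart, 20.1% and 27.6% in whole blood, and 32.8% and 23.7% in plasma. Control plasma alone detected 26.3% of all mRNA probes. No class was tested against these shares. Subunits of the core and of the ATPase ring were brighter in heart than in blood, apart from Psma8, and between the hearts they differed less than 2-fold apart from Psmc5.

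Among core subunits, Psma2, an α subunit, read 10.28 in control heart and 10.41 in HF heart, 7.34 and 8.05 in control and HF whole blood, and 7.11 and 5.71 in control and HF plasma. Psmb4, a β subunit, read 10.98 and 11.07 in the hearts, 6.53 and 7.93 in whole blood and 6.71 in control plasma, and it was not detected in HF plasma. Both were thus within 2-fold between hearts, and both were lowest in HF plasma. In HF whole blood Psmb4 was 2.64-fold higher (log2 1.40 ± 0.28), a call that ended at 0.99 with a normexp background correction. In plasma Psma2 was 2.63-fold lower (log2 -1.39 ± 0.32), which became -0.71 with that correction, and Psmb4 was at least 2.52-fold lower. Psmb6, which carries a catalytic site of the core, read 8.58 in control and 8.14 in HF heart, was not detected in either whole blood, and read 6.18 and 5.56 in control and HF plasma. Its differences stayed under 2-fold. Psma8, an α subunit known from the testis, was detected only in control heart, at 4.17, and in control plasma, at 5.63.

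The 3 ATPases of the regulatory particle differed from each other in where they moved. Psmc5 read 9.97 in control heart and 11.11 in HF heart, 6.88 and 7.78 in whole blood, and 7.68 and 6.48 in plasma. It was 2.20-fold higher in HF heart (log2 1.14 ± 0.20), the only one of the 4 heart rises that stayed past 2-fold with normexp, at 1.05. In plasma it went the other way and was 2.29-fold lower in HF (log2 -1.19 ± 0.26), or -0.51 with normexp. Psmc1 read 11.17 and 11.03 in the hearts, 6.31 and 8.08 in whole blood and 6.88 and 6.91 in plasma. Its high array was HF whole blood against control whole blood, 3.42-fold (log2 1.77 ± 0.29), while heart and plasma were level. Psmc3 read 9.41 and 9.86 in the hearts, 6.24 and 6.76 in whole blood and 6.22 in control plasma, and it fell below detection in HF plasma, at least 1.80-fold lower.

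Psmd4, which binds ubiquitin chains at the regulatory particle, had the opposite tissue order, with 12.69 and 13.04 in control and HF heart, 14.51 and 14.04 in whole blood and 14.30 in control plasma, but 9.12 in HF plasma. The 5 other arrays thus lay within 2 log2 units of each other and HF plasma alone was low, 36.3-fold below control plasma (log2 -5.18 ± 0.21). In whole blood its log2 fold change of -0.48 became -2.03 when arrays were scaled to the 75th percentile. Psme2 read 3.99 in control heart, was not detected in HF heart, and read 6.57 and 5.66 in whole blood and 6.49 and 5.81 in plasma, all under 2-fold. Both probes of Psmg4 were brightest in control heart. The probe for NM_001101430 read 10.05 and 8.22 in the hearts, 7.77 and 6.63 in whole blood and 7.64 in control plasma, and was not detected in HF plasma. It was lower in HF in all 3 tissues, 3.57-fold in heart, 2.22-fold in whole blood (log2 -1.15, or -0.91 with normexp) and at least 4.81-fold in plasma. The probe for NM_001110515 read 10.53 and 9.55, 6.14 and 6.29, and 6.67 and 6.16 in the same order, and stayed under 2-fold throughout, with the nearest difference in heart at 1.96-fold lower.

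**Figure D4:**
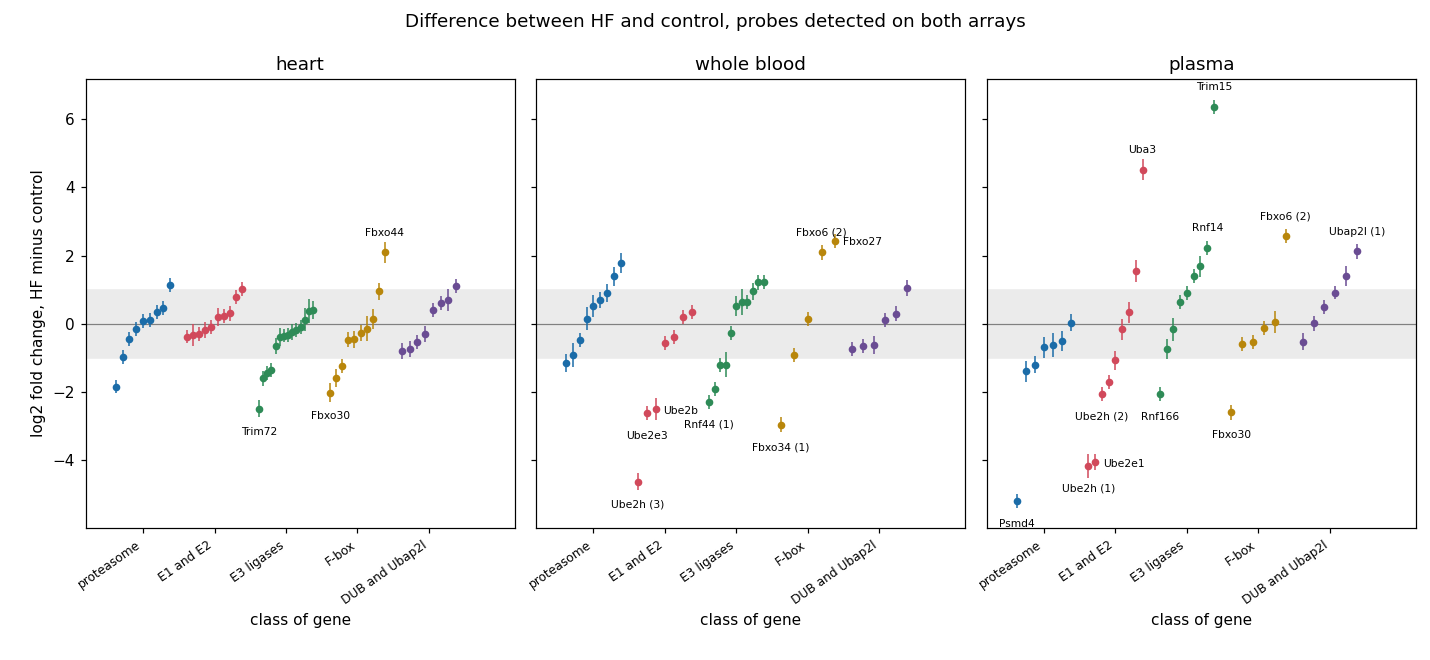
Log2 fold change of HF minus control (y axis) for member probes detected on both arrays of heart, whole blood or plasma, by class of gene (x axis). Bars show the error that the image software assigns, and the grey band marks differences under 2-fold. Numbers in brackets tell apart probes of 1 gene in the order of their transcript numbers. Points spread least in heart, where Trim72 at -2.49 is the lowest, and most in plasma, from Psmd4 at -5.18 to Trim15 at 6.37.

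The E1 and E2 enzymes were 11 genes with 15 probes. In heart 1 of 10 probes detected on both arrays was higher in HF and none was lower, in whole blood none of 7 was higher and 3 were lower, and in plasma 2 of 9 were higher and 5 lower. Conjugating enzymes gave 3 of the 4 largest falls in whole blood among members detected on both arrays, and 5 probes of this class were detected in control plasma only.

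Ube2h, which rises in maturing red cells, had 3 probes. The probe for NM_009459 read 5.42 in control heart and 5.09 in HF heart, 11.07 and 6.45 in the whole bloods of the same order, and 10.39 in plasma of control mice, and was not detected in HF plasma. It was high on the 2 control blood arrays only, 24.6-fold above HF whole blood (log2 -4.62 ± 0.25 for HF minus control) and at least 32.4-fold above HF plasma. The probe for NM_001169576 gave the same picture, with 4.70 in control heart, 10.19 in control whole blood, 9.56 and 5.39 in the plasmas and no detection in HF heart or HF whole blood. HF whole blood was at least 31.8-fold lower, and HF plasma was 18.0-fold lower (log2 -4.17 ± 0.35). The HF plasma level was near 5.37, the lowest which that array detected, so this fold is close to a bound. The probe for NM_001169577 did not follow in whole blood: it read 5.91 and 5.73 in the hearts, 10.08 and 10.42 in whole blood, and 10.03 and 7.97 in plasma. Its difference was 1.27-fold up in whole blood and 4.16-fold down in plasma. The 3 probes of Ube2h therefore disagreed for whole blood.

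Ube2e3, a conjugating enzyme with an extended amino terminus, read 12.20 and 11.91 in the hearts, 13.78 and 11.18 in the whole bloods and 13.65 in control plasma, and was not detected in HF plasma. Ube2b, the conjugating enzyme of DNA damage bypass also called Rad6B, read 7.52 and 8.32 in the hearts, 8.36 and 5.87 in whole blood and 8.14 in control plasma, and was likewise not detected in HF plasma. Both had their highest blood levels in control mice. Ube2e3 in HF mice was 6.07-fold lower in whole blood (log2 -2.60 ± 0.20) and at least 310.1-fold lower in plasma. Ube2b in HF mice was 5.63-fold lower in whole blood (log2 -2.49 ± 0.32) and at least 6.83-fold lower in plasma, while in heart it was 1.73-fold higher, a log2 fold change of 0.79 that became 1.13 with scaling to the 75th percentile. Erythroid markers moved beside these enzymes. Of 7 erythroid probes, 6 were detected on both whole blood arrays with none higher, 3 lower and a median log2 fold change of -1.11, and in plasma 3 were detected on both arrays, all lower with a median of -8.31, and 4 in control plasma only. The globin probes Hbb-b1 and Hba-a1 were level in whole blood, at 17.64 and 17.43 for Hbb-b1 and 17.58 and 17.35 for Hba-a1 in control and HF. Their part in the falls of Ube2h, Ube2b and Ube2e3 was not tested.

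**Figure D5:**
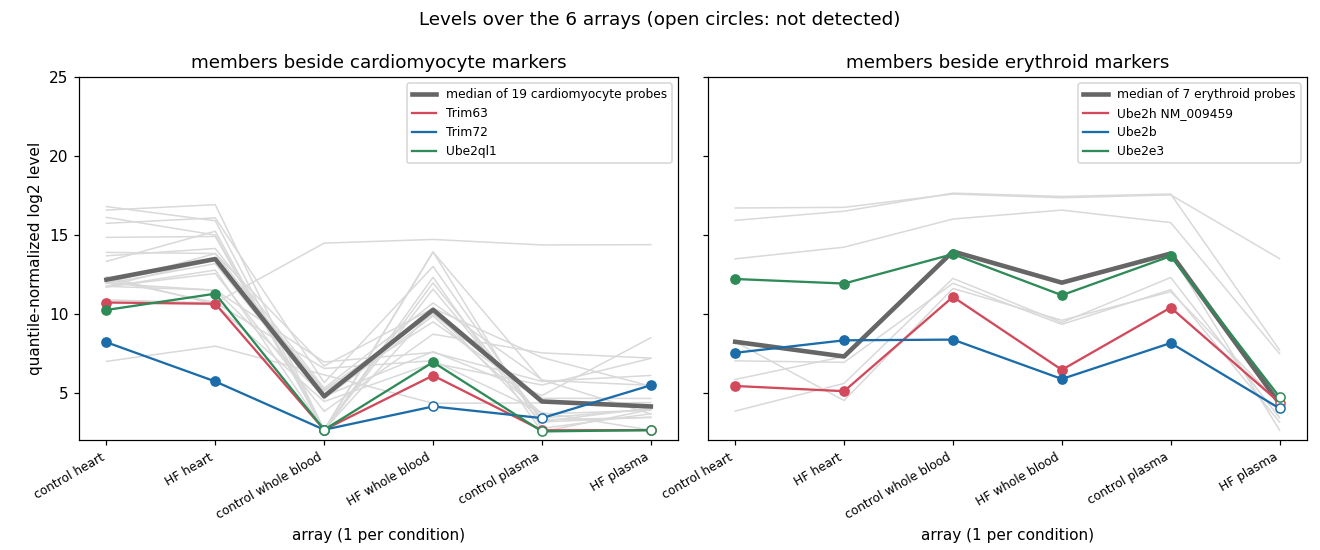
Quantile-normalized log2 levels (y axis) on the 6 arrays (x axis) of Trim63, Trim72 and Ube2ql1 beside 19 cardiomyocyte marker probes (left), and of Ube2h (probe for NM_009459), Ube2b and Ube2e3 beside 7 erythroid marker probes (right), with thin grey lines for single markers, a thick line for their median and open circles where a member was not detected. Levels are to be compared along a line only. Trim63 and Ube2ql1 are detected in both hearts and in HF whole blood, and the Ube2h probe shown, Ube2b and Ube2e3 are not detected in HF plasma.

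Ube2ql1, a gene related to the E2 enzymes, had the reverse pattern. It read 10.24 and 11.27 in the hearts and 6.93 in HF whole blood, and was not detected in control whole blood or in either plasma. It was 2.05-fold higher in HF heart (log2 1.03 ± 0.20), at the edge of the threshold, and 0.93 with normexp and 0.98 when the heart arrays were normalized apart from the blood arrays. In HF whole blood it was at least 2.23-fold higher.

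The conjugating enzymes Ube2l3 and Ube2e1 were steady in heart and low in HF plasma. Ube2l3, which serves HECT and RING-between-RING ligases, read 13.36 and 13.26 in the hearts, 9.99 and 10.19 in whole blood and 10.17 and 8.46 in plasma, where it was 3.27-fold lower. Ube2e1 read 12.35 and 11.98, 9.26 and 8.70, and 9.45 and 5.40 in the same order. It was within 2-fold in heart and whole blood, and 16.6-fold lower in HF plasma (log2 -4.05 ± 0.25). Its HF plasma level was near 5.37, the lowest which that array detected, so this fold is close to a bound. Ube2j2, an enzyme of the endoplasmic reticulum membrane, was 2.93-fold higher in HF plasma (log2 1.55 ± 0.32), and it was detected in HF whole blood but not in control whole blood, with no bound above 1.

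Ube2m, the conjugating enzyme for NEDD8, was detected in HF heart at 5.13 and not in control heart, at least 2.70-fold higher, and at 6.10 and 6.37 in the control whole blood and plasma but in neither HF array of these.

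The E1 enzymes were Uba1, which starts most ubiquitin transfer, and Uba3, the catalytic subunit of the E1 for NEDD8. The Uba1 probe for NM_009457 read 6.84 and 7.08 in the hearts, 9.34 and 8.94 in whole blood and 8.75 in control plasma, and was not detected in HF plasma, at least 10.4-fold lower. The probe for NM_001136085 read 4.49 in control heart, 6.50 in control whole blood and 6.23 and 6.07 in plasma, and HF heart and HF whole blood lacked it. The 2 probes thus lost detection on different HF arrays. Uba3 read 5.50 in control heart, 5.49 in control plasma and 10.02 in HF plasma, and was not detected on the other 3 arrays. HF plasma was its bright array, 23.0-fold above control plasma (log2 4.52 ± 0.30).

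The E3 ligases of the HECT, Rnf and Trim kinds were 14 genes with 15 probes. In heart none of 14 probes detected on both arrays was higher in HF and 4 were lower, in whole blood 2 of 11 were higher and 4 lower, and in plasma 4 of 9 were higher and 1 lower.

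Trim63, the muscle ligase MuRF1, read 10.71 in control heart and 10.63 in HF heart, and 6.09 in HF whole blood, and was not detected in control whole blood or in either plasma. The hearts were level, with a log2 fold change of -0.08 ± 0.20 that turned to 0.30 with scaling to the 75th percentile. HF whole blood was the only blood array with a signal, at least 1.24-fold above what control whole blood could detect. Trim72 (MG53), a muscle protein of membrane repair, read 8.19 in control heart, 5.71 in HF heart and 5.47 in HF plasma, and was not detected in control plasma or in either whole blood. It was 5.60-fold lower in HF heart (log2 -2.49 ± 0.24), the largest fall of a member there. HF plasma was at least 1.78-fold above what control plasma could detect, at a level near 5.37, the lowest that HF plasma detected. Cardiomyocyte markers moved beside Trim63 and Ube2ql1 in whole blood. Of 19 marker probes, 14 were detected in HF whole blood but not in control whole blood. The log2 of the summed levels of all 19 was 14.52 in control and 16.39 in HF whole blood. It was 14.41 in control and 14.44 in HF plasma, and 18.75 and 18.76 in the hearts. The markers Tnni3, Tnnc1 and Atp2a2 (NM_009722) were not above background in control whole blood and read 12.31, 11.96 and 13.92 in HF whole blood. The other Atp2a2 probe (NM_001110140) was detected on both arrays, at 6.70 in control and 10.34 in HF whole blood. Control whole blood did detect 5 of the 19, among them Myh6, which read 14.47 there and 10.88 in control heart. Myh6 also read 14.36 in control and 14.38 in HF plasma. The sums of control whole blood and of both plasmas were thus mostly this 1 probe. Fibroblast markers also appeared, with 3 of 5 probes detected in HF whole blood only. The part of heart RNA in the levels of Trim63 and Ube2ql1 in HF whole blood was not tested. In HF plasma, where Trim72 was detected, 12 of the 19 cardiomyocyte probes were not detected, Tnni3 and Tnnc1 among them.

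Trim15, a RING ligase, had the largest rise among members detected on both arrays of a pair. It read 5.25 and 5.66 in the hearts, 9.97 and 11.19 in control and HF whole blood, and 9.79 and 16.16 in control and HF plasma. HF plasma stood far above the other arrays, 82.9-fold over control plasma (log2 6.37 ± 0.20). In whole blood it was 2.33-fold higher in HF (log2 1.22 ± 0.20), a call that ended at 0.69 with scaling to the 75th percentile. Trim21, an intracellular antibody receptor, was also higher in both, 2.32-fold in HF whole blood and 2.63-fold in HF plasma, and within 2-fold in heart. Neutrophil markers were higher in all 3 tissues beside them, with all 4 probes brighter in HF and median log2 fold changes of 4.47 in heart, 4.27 in whole blood and 3.88 in plasma among those detected on both arrays, and their part was not tested. Trim30a was 2.30-fold lower in whole blood of HF mice and within 2-fold elsewhere. Trim45 stayed within 2-fold in all 3 tissues. Trim46, which organises microtubules in axons, was 2.70-fold lower in the HF heart and 2.30-fold lower in the HF blood.

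The Rnf ligases were 6 genes with 7 probes. Of those detected on both arrays, 2 of 6 were lower in HF heart and 2 of 5 in HF whole blood, with none higher, and in HF plasma 2 of 5 were higher and 1 lower. Rnf44 (NM_001146025) read 8.58 and 6.98 in the hearts, 10.85 and 8.56 in whole blood and 10.73 and 11.37 in plasma. Rnf20, which puts ubiquitin on histone H2B, read 8.94 and 7.58, 12.98 and 11.06, and 12.93 and 13.83 in the same order. Both were lower in HF heart and HF whole blood and not in HF plasma: Rnf44 by 3.03-fold (log2 -1.60 ± 0.21) and 4.89-fold (log2 -2.29 ± 0.21), Rnf20 by 2.57-fold and 3.76-fold. A second Rnf44 probe, for NM_001146027, was detected on the 3 control arrays only, at 4.90 in heart, 5.90 in whole blood and 6.20 in plasma. Rnf14, of the RING-between-RING kind, read 6.55 and 5.92 in the hearts, 9.08 and 9.73 in whole blood and 9.11 and 11.33 in plasma, and was 4.65-fold higher in HF plasma (log2 2.22 ± 0.20). Rnf217 was 3.22-fold higher there and Rnf166 was 4.17-fold lower. Rnf41 was detected in control plasma but not in HF plasma, at least 2.98-fold lower. Ube3a, the HECT ligase lost in Angelman syndrome, read 10.19 and 9.85 in the hearts, 5.80 and 6.44 in whole blood and 5.70 in control plasma, and was not detected in HF plasma, at least 1.25-fold lower.

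F-box proteins, which choose substrates for cullin ligases, were 8 genes with 11 probes. In heart 1 of 10 probes detected on both arrays was higher in HF and 3 were lower, in whole blood 2 of 5 were higher and 1 lower, and in plasma 1 of 6 was higher and 1 lower. Several read low in the hearts, and all 4 of the 2-fold calls of this class there ended with normexp.

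Fbxo44 read 4.11 in control heart, 6.20 in HF heart and 6.71 in control plasma, and was not detected in either whole blood or in HF plasma. It was 4.28-fold higher in HF heart (log2 2.10 ± 0.30), the largest rise of a member there, and 0.74 with normexp. In plasma it was at least 2.53-fold lower in HF. Fbxo30 read 7.46 and 5.45 in the hearts, 11.32 and 10.42 in whole blood and 10.04 and 7.45 in plasma. All 3 HF arrays read below their controls, by 4.05-fold in heart (log2 -2.02 ± 0.27, or -0.94 with normexp) and a log2 fold change of -2.59 ± 0.22 in plasma, while in whole blood the log2 fold change of -0.90 passed 2-fold with scaling to the 75th percentile, at -1.51.

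Fbxo6, which binds glycoproteins, had 3 probes. The probe for NM_001163705 read 8.60 and 7.36 in the hearts, 9.13 and 11.22 in whole blood and 9.85 and 12.43 in plasma. Of the 25 member probes detected on all 6 arrays, this was the only 1 past 2-fold in all 3 tissues. It was lower in HF heart by 2.35-fold (log2 -1.23 ± 0.21, or -0.77 with normexp) and higher by 4.27-fold in whole blood and 5.96-fold in plasma. The Psmg4 probe for NM_001101430 also passed 2-fold in all 3 tissues, in plasma as a bound. No such count over all mRNA probes is given here. The probe for NM_001163704 read 4.96 and 5.91 in the hearts, 6.09 in control whole blood and 7.22 in HF plasma, and was not detected on the other arrays. It shared the direction in plasma, at least 5.99-fold higher. It had the opposite direction in heart, with a log2 fold change of 0.95 (1.94-fold higher in HF, under the 2-fold count), and in whole blood, at least 1.86-fold lower in HF. The probe for NM_001163706 was detected only in control heart, at 4.15, and in control plasma, at 6.06.

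Fbxo27, another glycoprotein binder, read 6.42 and 5.97 in the hearts, 9.77 and 12.22 in whole blood and 9.81 and 9.22 in plasma. HF whole blood was its single high array, 5.43-fold over control (log2 2.44 ± 0.20). Fbxo34 (NM_001146085) read 7.004 and 5.41 in the hearts, 10.41 and 7.46 in whole blood and 9.98 and 9.44 in plasma. It was lower in HF heart by 3.02-fold (log2 -1.60, or -0.81 with normexp) and in HF whole blood by 7.74-fold (log2 -2.95 ± 0.22). A second Fbxo34 probe, for NM_001146086, was level in heart and plasma and was detected in HF whole blood only, at least 1.73-fold higher, against the direction of the first. Fbxo10 was detected in HF but not in control in both whole blood and plasma, at least 1.44-fold and 3.38-fold higher. Fbxo33 was detected in both hearts and in control plasma, and Fbxo39 on all 6 arrays within 2-fold.

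Deubiquitinases were 5 genes with 7 probes. Where both arrays detected them, 1 of 6 was higher in HF heart, none of 4 in whole blood and 1 of 4 in plasma, and none was lower. Usp30, which acts at the outer mitochondrial membrane, read 7.78 and 8.89 in the hearts, 5.30 in the whole blood of HF mice and 4.79 in the plasma of control mice, and was not detected on the other 2 arrays. It was 2.16-fold higher in HF heart (log2 1.11 ± 0.20, or 0.92 with normexp). Usp9x read 8.39 and 7.85 in the hearts, 10.08 and 10.18 in whole blood and 9.66 in control plasma, and Usp34 read 8.72 and 9.02 in whole blood and 8.54 in control plasma. Both were level in heart and whole blood and were not detected in HF plasma, at least 19.5-fold lower for Usp9x and 9.003-fold for Usp34. Usp35 was 2.64-fold higher in HF plasma. The 3 probes of Usp19, a deubiquitinase of the endoplasmic reticulum, stayed within 2-fold wherever both arrays detected them.

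Ubap2l had 2 probes that disagreed in blood. The probe for NM_001165984 read 8.27 and 8.88 in the hearts, 7.29 and 6.67 in whole blood and 7.33 and 9.45 in plasma. The probe for NM_001165988 read 9.27 and 9.68, 7.32 and 8.37, and 7.21 and 6.68 in the same order. The first was 4.36-fold higher in HF plasma and the second 2.08-fold higher in HF whole blood, and in each case the other probe pointed down.

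Across tissues the members were not of one kind. Of 44 detected in both control heart and control whole blood, 12 (27.3%) were at least 2-fold higher in heart and 25 (56.8%) were at least 2-fold lower, beside 17.8% and 56.1% of all mRNA probes. The 12 were the probes of Psma2, Psmb4, the 3 ATPases, Ube3a, Ube2e1, Ube2l3 and Rnf166, both Psmg4 probes and 1 Ubap2l probe, with gaps from 1.95 for Ubap2l to 4.86 for Psmc1 on the log2 scale. The deepest gaps the other way were those of the Ube2h probe for NM_009459, at -5.65, Trim15, at -4.73, and Rnf20, at -4.04, beside the other Ube2h probes. The array with a probe's highest level was HF plasma for 16 members, control whole blood for 12, control heart for 10, HF whole blood for 9, HF heart for 8 and control plasma for 6. The same count over all mRNA probes is not given here, so these numbers do not set the members apart. Of all mRNA probes detected on both, 38.2% were higher and 29.5% lower in HF plasma than in HF whole blood.

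A list of 54 other genes of the ubiquitin system, with 71 probes, gave the surroundings. In heart 2 of its 51 probes detected on both arrays were higher in HF and 5 lower, with a median log2 fold change of 0.07. All mRNA probes gave 11.6% higher and 17.1% lower there, with a median of -0.16. The largest rise was that of the ligase Pja1, 1.81, and the largest fall that of Asb14, a substrate receptor of cullin ligases, -2.64. In whole blood 4 of 40 were higher and 19 (47.5%) lower, with a median of -0.88. Among all mRNA probes 20.1% were higher and 27.6% lower, with a median of -0.20. The ends of that range were Fbxl18 at 3.67 and Fbxw2 (NM_001164772) at -4.28. In plasma 11 of 33 were higher and 11 lower, with a median of 0.29, beside 32.8% and 23.7% of all mRNA probes. The range ran from Ring1, a Polycomb ligase, at 8.73 to Vcp, the ATPase that extracts ubiquitinated proteins, at -5.45. The share of lower probes in HF whole blood was thus larger in this list than among the members, where it was 23.7%, and the difference was not tested.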

How the data were processed

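RNA mixtures of heart, whole blood and plasma from isoproterenol-treated and control mice were read on 6 single-colour arrays, 1 for each condition, and groups were taken from the sample labels. Spot values were extracted by the authors in Agilent Feature Extraction 11.0.1.1, and the deposited intensity is a processed signal with background subtracted, not normalized between arrays, with an error and flags for each spot. Whole-series values were the same spot by spot and were not used. The paper's methods describe plasma RNA as taken from more mice than were mixed.

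Control spots were left out of 59729 probes. Spots of 1 probe were combined as the mean of their log2 intensity, and quantile normalization across the 6 arrays followed, as the methods state. A probe was detected if most of its spots were well above background and not outliers, and a 2-fold difference between detected values was counted. The number of arrays limits the precision, and errors are only those that the image software assigns to spots. Bounds take the mean log2 level of the bright array against the higher of the dim probe's level and the lowest detected level. Gene names came from a supplementary table of the paper that is held in part, and all 61 member transcripts were found in RefSeq (GRCm38.p6), which supplied the promoters.

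Values on all arrays were given for Trim63, Trim72, proteasome subunits detected on both arrays of a tissue, Uba1, Ube2b, Ube2l3, Ube3a, Usp9x, and the 4 largest rises and falls per tissue, with all probes of a gene that disagreed. Other members with values (Ube2m, Psma8, Rnf20, Usp34 and Ubap2l) were chosen after values were seen. The values of 1 member gene with 2 probes are not reported here, though the counts include it. The members, the gene and marker lists and the rule were chosen with earlier results of these data known. Alternatives were 75th percentile scaling, quantiles within subsets, normexp with an offset of 50, other detection rules and thresholds of 1.5 and 4. Steps were tested on simulated data. Python 3.11.15, numpy 2.4.6, pandas 2.3.3, matplotlib 3.10.9, R 4.3.3 and limma 3.58.1 were used.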

Additional observations from a re-analysis of the deposited data

Results flagged for a closer look

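Among probes detected on both arrays of each tissue compared, those of 2 members differed in opposite directions, each past 2-fold. With 1 array for each condition these differences were not tested. Counting bounds adds others, such as Fbxo44 (up in heart, down in plasma) and Psmb4 (up in whole blood, down in plasma). The share of all mRNA probes with opposite directions is not given here. Of all mRNA probes, 11.6% were higher and 17.1% lower in heart, 20.1% and 27.6% in whole blood, and 32.8% and 23.7% in plasma. Psmc5, an ATPase of the proteasome's regulatory particle, had a log2 fold change of 1.14 in heart and -1.19 in plasma, a difference of -2.33 for plasma minus heart. The Fbxo6 probe for NM_001163705 had a log2 fold change of -1.23 in heart, 2.09 in whole blood and 2.57 in plasma, which were 3.33 and 3.81 above the heart. Another Fbxo6 probe, for NM_001163704, had the opposite direction in heart (log2 0.95, both arrays detected) and in whole blood (at least 1.86-fold lower in HF), and the same direction in plasma (at least 5.99-fold higher). With a normexp background correction the plasma value of Psmc5 was -0.51 and the heart value of Fbxo6 was -0.77, both under 2-fold.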

How the results depend on the processing

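Quantiles within each pair or over heart and blood arrays apart, and flags without the outlier flags, left all counts within 1.5 times and the medians near those reported. With 75th percentile scaling the median of all mRNA probes shifted by 0.15 in heart, -0.21 in whole blood and -0.15 in plasma, 4 members were higher in HF whole blood and their median was -0.33 (all mRNA probes 15.8%, median -0.41). With normexp 1 was higher and 5 lower in heart, where 6.26% and 8.94% of all mRNA probes were. The median of all mRNA probes shifted by -0.16 in plasma with it. Without a detection filter 13 were higher and 22 lower in whole blood (median -0.39) and 28 lower in plasma (median -0.63) of 61 probes, where 28.0% and 29.7% of all mRNA probes were (median -0.07) and 37.6% (median -0.28). Among the 25 probes detected on all 6 arrays, 1 was higher and 5 lower in heart, 4 lower in whole blood, and 5 higher in plasma (median -0.50). All mRNA probes under that filter gave 6.10% higher and 24.2% lower in heart. They gave 25.6% lower in whole blood and 30.1% higher in plasma (median 0.07). At 1.5-fold 8 were higher in heart, and 12 higher and 14 lower in whole blood, where 21.1%, 28.4% and 38.1% of all mRNA probes were. At 4-fold 1 was higher and 2 lower in heart, 2 and 5 in whole blood, and 5 and 6 in plasma. In the same order 3.44% and 1.32%, 8.14% and 11.3%, and 18.7% and 13.2% of all mRNA probes were. Chosen after seeing the data, a floor at the 99th percentile of negative control spots gave a median of -0.27 in whole blood (all mRNA probes -0.29), and 5 higher, 3 lower and a median of 0.64 among the 15 probes left in plasma (all mRNA probes 49.3%, 14.6% and 0.98), and 1 probe for each gene gave a median of -0.53 in plasma. Filters and thresholds change the probes counted, and the cause of the other moves was not tested. Of 69 values of named probes 32 were past 2-fold, and 31 of these remained with 75th percentile scaling and 22 with normexp. Signs changed for 7 with the first, all under 2-fold, and for 0 with the second. No paired analysis was possible because each group held 1 array. Differences of dim probes are limited by signal over background.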
